A study of Mus musculus with 6 samples.

Results

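The genes described here are 10 of the 25528 counted in mouse gastric corpus organoids, picked by name as members of the YAP and TEAD pathway and its targets: the coactivator genes Yap1 and Wwtr1 (TAZ), the genes of the DNA-binding partners Tead1 and Tead4, the kinase gene Lats2, the adaptor genes Ajuba and Amotl2, and the target genes Ccn1 (Cyr61), Ccn2 (Ctgf) and Ankrd1. All 10 had enough counts to be tested among 12593 genes. Ankrd1, a reporter gene of YAP activity, showed the largest difference between organoids that overexpress Erbb2 and their controls, and it passed the test only in fits that compare libraries with the same replicate number, or with DESeq2; the other 9 did not pass in either of the fits described below. Organoids, which are epithelial cultures grown in 3 dimensions, came from the corpus, the acid-secreting body of the stomach. One group was engineered to overexpress Erbb2 and the other, the control, was transduced with the empty vector, so that both groups went through transduction. Each group had 3 libraries of polyadenylated RNA, numbered 1 to 3 in both. The labels give no strain, age, number of animals or clones, and neither the promoter nor the species of the Erbb2 construct.

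YAP and TAZ are transcriptional coactivators without a DNA-binding domain of their own, and they reach DNA mainly through the TEAD factors. The Hippo kinases, among them LATS1 and LATS2, phosphorylate them and keep them in the cytoplasm, and spreading, stretch and a stiff matrix favour their entry into the nucleus. Much of this control acts on the proteins, which RNA counts do not measure, so that reporter genes such as Ccn1, Ccn2 and Ankrd1 are commonly read as its output. Several inhibitors of the pathway, such as LATS2 and AMOTL2, are themselves induced by YAP in many epithelia.

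Upstream sequences of 4 genes are shown because their transcripts carry the comparisons below: Ankrd1, which differed most, Ccn1 and Amotl2, which did not pass the test, and F3, a target outside the set that did. Each run gives the 250 bases before the transcription start on the gene's strand, from RefSeq in GRCm38.p6; the counts were made on another build, GRCm39. Capitals mark matches to GGAATG or its reverse complement CATTCC, the core letters of the TEAD motif, and to TGANTCA, the AP-1 motif. Both strands were searched, also for the CArG box bound by SRF, and no match overlapped one of another motif.
Ankrd1 (chr19:36119845-36120094, minus strand): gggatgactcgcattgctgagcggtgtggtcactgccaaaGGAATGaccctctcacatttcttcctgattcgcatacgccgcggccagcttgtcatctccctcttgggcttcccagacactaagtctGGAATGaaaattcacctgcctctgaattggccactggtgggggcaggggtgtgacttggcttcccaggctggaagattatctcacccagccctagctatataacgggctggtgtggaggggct
Ccn1 (chr3:145649986-145650235, minus strand): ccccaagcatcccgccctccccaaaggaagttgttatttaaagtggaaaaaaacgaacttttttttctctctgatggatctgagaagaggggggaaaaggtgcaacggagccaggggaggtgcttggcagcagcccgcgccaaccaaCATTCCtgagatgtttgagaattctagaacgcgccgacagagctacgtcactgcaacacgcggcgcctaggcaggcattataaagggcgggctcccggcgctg
Amotl2 (chr9:102717554-102717803, plus strand): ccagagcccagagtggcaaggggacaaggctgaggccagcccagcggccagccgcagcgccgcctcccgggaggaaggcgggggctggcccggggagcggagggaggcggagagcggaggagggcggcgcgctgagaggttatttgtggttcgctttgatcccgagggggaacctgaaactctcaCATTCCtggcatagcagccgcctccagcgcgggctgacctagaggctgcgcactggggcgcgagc
F3 (chr3:121723287-121723536, plus strand): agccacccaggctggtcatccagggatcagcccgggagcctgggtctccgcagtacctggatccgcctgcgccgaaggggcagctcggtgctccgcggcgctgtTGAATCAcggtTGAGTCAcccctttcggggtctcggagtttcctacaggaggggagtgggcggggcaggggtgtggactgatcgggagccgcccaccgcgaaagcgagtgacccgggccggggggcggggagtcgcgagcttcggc

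The Ankrd1 window held 2 copies of GGAATG, which began 210 and 123 bases before the start. Ccn1 held CATTCC once, beginning 103 bases before it, and Amotl2 once, beginning 65 bases before it. F3 held none and had 2 AP-1 matches, beginning 146 and 135 bases before the start. Fat1, an upstream gene outside the set that also passed with the block, held GGAATG once, beginning 102 bases before its start (not shown). Of the 10 genes 7 had windows in the table, and 6 of these had the TEAD letters: Ankrd1, Ccn1, Amotl2, Ajuba, Yap1 and Wwtr1, but not Lats2. Among all 32851 windows of this length, 12.6% had the TEAD letters, 6.75% the AP-1 letters and 1.47% a CArG box; 0 of the 7 genes had either of the last 2. Such matches describe these letters in these windows and do not show that a factor binds there. Ccn2, Tead1 and Tead4 were not searched, nor was Dock5, another target outside the set that passed with the block.

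Total counts per library lay between 18735853 and 22767455, and the values below are counts per 1000000 scaled counts (CPM). Erbb2 itself was at 125, 164 and 128 CPM in control replicates 1, 2 and 3 and at 342, 349 and 285 CPM in the overexpressing ones. Epithelial genes were high in every library, with Cdh1 between 1937 and 2279 CPM. The parietal cell gene Atp4b was not detected at all, and Lipf, a lipase gene of chief cells, had at most 2 counts. Pgc, which encodes a pepsinogen of the same cells, was expressed in every library, at 52.0 to 97.3 CPM. The 11 gastric epithelial markers summed to 5077 to 6361 CPM in controls and 6095 to 6196 CPM in overexpressing libraries, and 1 of the 8 tested, Tff2, rose, where 2.37% of all genes were called higher with the block described below. Most of each sum came from the general epithelial genes Cdh1, Krt8, Krt18 and Epcam. Cldn18 ranged from 307 to 1168 CPM, while Gkn1 had at most 116 counts and Muc5ac at most 56. Of the 8 tested markers, Tff2, Cldn18 and Gkn1 were higher with Erbb2 in 3 of 3 pairs and 0 were lower. Among all genes tested 19.6% were higher and 19.2% lower in 3 of 3 pairs. Cldn18 and Gkn1 missed the threshold (adjusted p = 0.120 and 0.131, edgeR with the block). In bulk RNA, fewer cells of a type and less RNA per cell cannot be told apart. Fibroblast and smooth muscle cells also express Ccn1, Ccn2 and Ankrd1, and their markers were close to 0. The summed level of 8 fibroblast markers was 0.695 to 1.42 CPM in controls and 1.35 to 1.70 CPM in overexpressing libraries, with Col1a2, Dcn, Lum, Pdgfrb and Thy1 at 0 counts throughout. That of 6 smooth muscle markers was 0.0563 to 0.516 and 0.208 to 0.510 CPM, with Des and Actg2 at 0. The 6 endothelial markers summed to 1.07 to 1.97 CPM in controls and 0.566 to 10.2 CPM in overexpressing libraries, where the highest value was nearly all Tek in replicate 3, and Emcn was at 0. The 6 immune markers summed to 20.3 to 53.9 and 18.6 to 73.4 CPM, nearly all of it Cd68; the part of Cd68-expressing cells in the results was not tested.

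Across genes, deviations from the group means correlated more between libraries with the same number than between others, at 0.333, 0.660 and 0.707 for replicates 1, 2 and 3. Both libraries of replicate 3 lay at one end of the leading principal component (57.8% of variance). Those of replicates 1 and 2 did not group by number there: control and overexpressing libraries were at 20.0 and -1.71 in replicate 1 and at 50.1 and 20.6 in replicate 2. Results are therefore given from a fit with the group alone, which was the planned one, and from a fit in which the replicate number is a block. In the first, 0 of the 10 genes passed an adjusted p of 0.05 (edgeR), against 0% of all genes tested, and limma voom also called 0. Ankrd1 was the only one of the 10 at an unadjusted p under 0.05, a share of 3.33% among all genes. DESeq2 without the block called Ankrd1 alone, where it called 0.270% of all genes. With the block, 1 of 10 was higher, again Ankrd1, and 0 were lower, against 3.09% of all genes called with 2.37% called higher and 0.723% lower. Across the other fits with the block, the share of all genes called was 3.14% with relative log expression scaling, 3.77% with DESeq2, 3.31% with voom, 2.08% with no filter and 3.22% with edgeR's earlier quasi-likelihood form. It was 1.69%, 1.15% and 8.71% without replicates 1, 2 and 3, and without the block it reached 0.00785% when control replicate 3 was left out. The median log2 fold change of the 10 genes was 0.07 in the fit with the block, and that of all genes tested was -0.0068. A gene is said to have risen or fallen by the blocked fit alone, and every gene described so missed the threshold in edgeR without it.

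**Figure D1:**
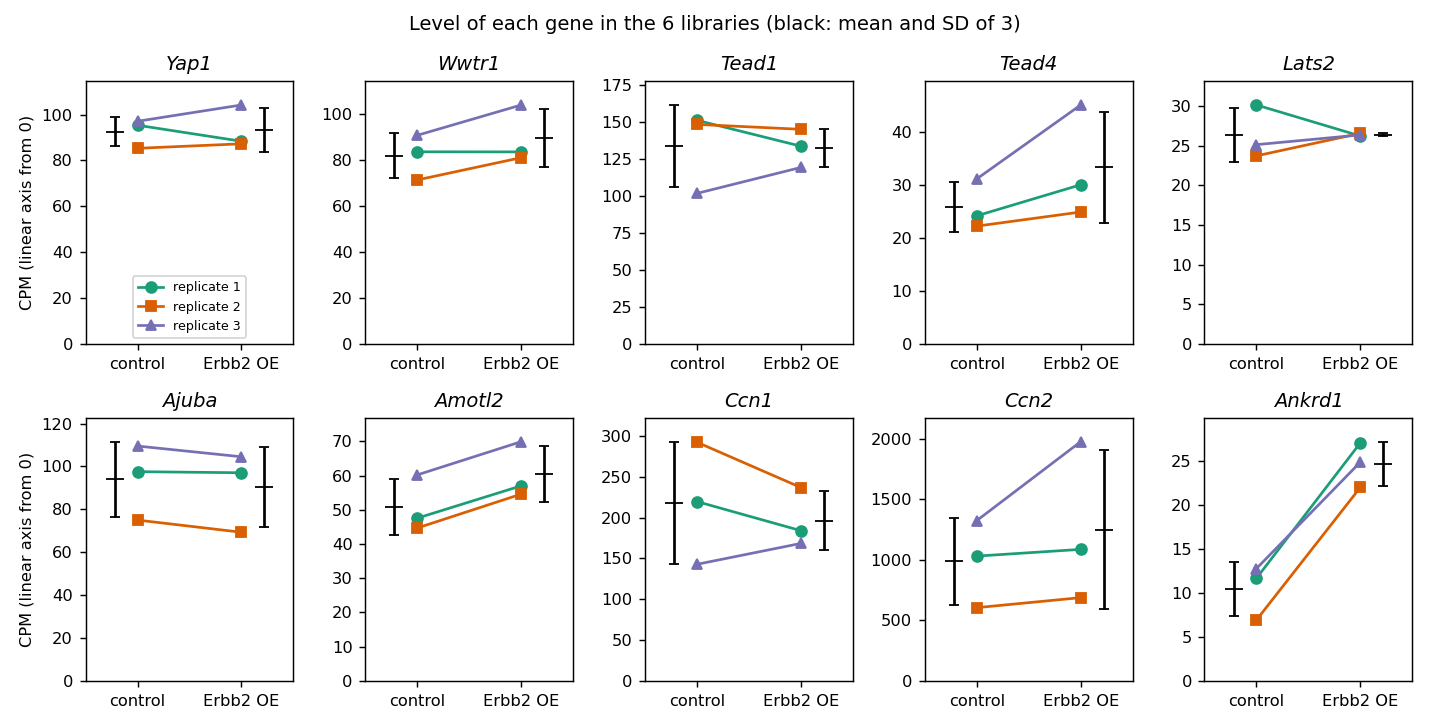
Level of each of the 10 genes in CPM (vertical axes, linear from 0) in control and Erbb2-overexpressing (Erbb2 OE) organoids; coloured lines join libraries with the same replicate number, and black bars give the mean and SD of 3 libraries. For Ankrd1 the control libraries (6.93 to 12.8 CPM) lie below all overexpressing ones (22.0 to 27.1 CPM), and in the other 9 panels the groups overlap.

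Ankrd1 encodes an ankyrin repeat protein of the sarcomere and nucleus that is strongly induced by YAP in many cells. It was at 11.7, 6.93 and 12.8 CPM in control replicates 1, 2 and 3 and at 27.1, 22.0 and 24.9 CPM in the overexpressing ones, from 123 to 297 and from 389 to 621 counts. Every overexpressing library was above every control library, which held for 1 of the 10 genes; among all genes tested the groups did not overlap in 8.75%, with Erbb2 higher in 4.27%. The mean was 10.5 ± 3.11 CPM in controls and 24.7 ± 2.54 CPM with Erbb2 (SD, n = 3). Ankrd1 rose 2.36-fold, or by 1.24 on the log2 scale (SE 0.15, adjusted p = 0.00142, edgeR with the block). Its folds within pairs were 2.32, 3.18 and 1.95. The group-only fit gave nearly the same size, a log2 fold change of 1.23 (SE 0.24), with an adjusted p of 0.816. It passed in each of the 9 fits with the block, with adjusted p-values between 3.11e-12 without replicate 3 and 0.00780 without replicate 2, and in 1 of the 12 other fits. Its level stayed low beside the other target genes, and its transcripts shared no run of 50 bases with another gene.

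Ccn2 encodes connective tissue growth factor, a secreted matrix-associated protein and a standard YAP reporter, and it was by far the most abundant of the 10. It was at 1032, 606 and 1325 CPM in control replicates 1, 2 and 3 and at 1088, 688 and 1978 CPM in the overexpressing ones. The overexpressing library was above its control in 3 of 3 pairs, by 1.05-, 1.14- and 1.49-fold, but the groups overlapped and the numbers differed more than the groups did. The log2 fold change with the block was 0.28 with a 95% interval from 0.07 to 0.49 before adjustment over genes, and the adjusted p was 0.158 (edgeR). With the group alone the interval ran from -0.68 to 1.36. In the gene models 17.2% of its 50-base runs were shared, mostly with Gm15270, a gene on the opposite strand, and the strand setting of the counting is not given in the sources used here.

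Ccn1 encodes CYR61, a close relative of Ccn2 with the same domain plan, and its values did not follow those of Ccn2. Control replicates 1, 2 and 3 were at 220, 292 and 143 CPM and overexpressing ones at 184, 237 and 168 CPM. The library of replicate 2 was the highest in both groups and that of replicate 3 the lowest, the reverse of Ccn2, and the groups overlapped. Within pairs the overexpressing library was at 0.838, 0.810 and 1.18 times its control, and the log2 fold change with the block was -0.11 (95% interval -0.34 to 0.12, adjusted p = 0.662, edgeR). Without replicate 3 it became -0.27 with an adjusted p of 0.0312, in a fit that called 8.71% of all genes, and without replicate 2 it was 0.0027. Per kilobase of exon, the level of Ccn2 was 3.31, 1.46 and 6.55 times that of Ccn1 in control replicates 1, 2 and 3 and 4.17, 2.05 and 8.29 times in the overexpressing ones. This ratio, examined after its values were seen, was higher in the overexpressing library of each pair and differed more between numbers than within pairs. Of the remaining CCN family genes, Ccn3 had at most 4 counts in any library and Ccn4, Ccn5 and Ccn6 had 0, so that Ccn1 and Ccn2 were the only members of the family at a testable level.

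**Figure D2:**
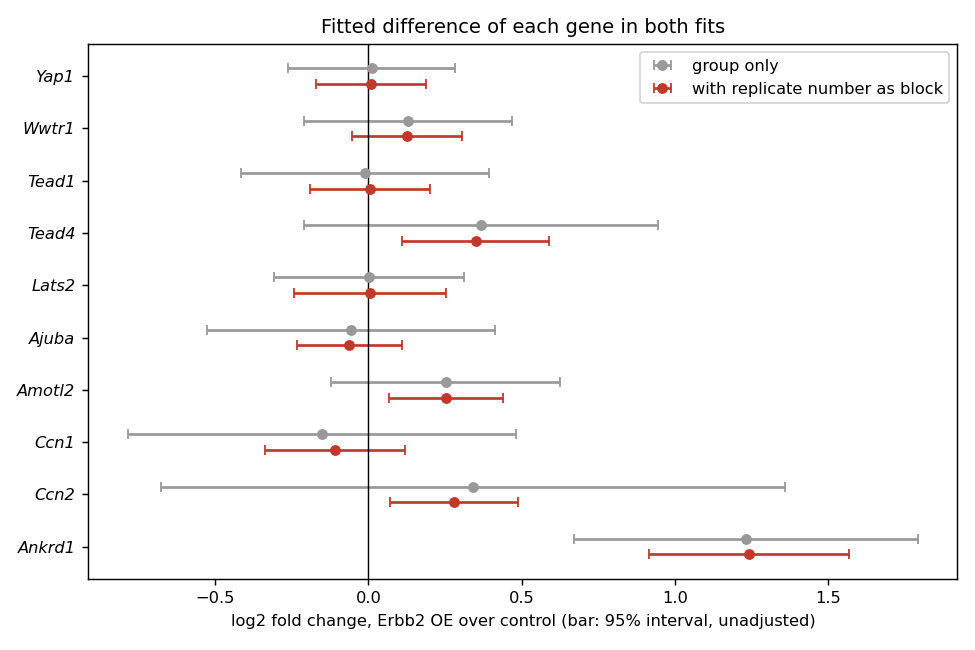
Log2 fold change of each gene, Erbb2 OE over control (horizontal axis), with 95% intervals that are not adjusted over genes, from the fit with the group alone (grey) and with the replicate number as a block (red). The Ankrd1 intervals lie above 0 in both fits, at 0.67 to 1.79 and 0.92 to 1.57, and those of Tead4, Amotl2 and Ccn2 do so with the block, where their adjusted p-values were 0.125, 0.148 and 0.158.

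Neither coactivator gene passed the test between groups. Yap1 was at 95.3, 85.3 and 97.1 CPM in control replicates 1, 2 and 3 and at 88.4, 87.2 and 104 CPM in the overexpressing ones. Its groups overlapped, and the 95% interval of the fold with the block ran from 0.889 to 1.14 (adjusted p = 0.975, edgeR). Wwtr1, which encodes TAZ, was at 83.7, 71.5 and 90.9 CPM in controls and 83.7, 81.2 and 104 CPM in overexpressing libraries. The values were nearly equal in pair 1 and higher with Erbb2 in the others, and the interval of the fold ran from 0.963 to 1.24 (adjusted p = 0.491). These intervals bound the size of a difference and do not show that there was none. Per kilobase of exon, Yap1 stood at 0.551 to 0.616 times the level of Wwtr1 in the controls and at 0.516 to 0.555 times in the overexpressing libraries. In CPM the order was the reverse: Yap1 was the higher in each library, though nearly equal in overexpressing replicate 3. The order thus depends on the exon lengths used, 9.257 kb for Yap1 and 4.779 kb for Wwtr1, which need not be the lengths transcribed here.

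Tead1 and Tead4 encode TEAD factors, which bring YAP and TAZ to DNA. Tead4 was at 24.2, 22.3 and 31.1 CPM in control replicates 1, 2 and 3 and at 30.0, 24.9 and 45.1 CPM in the overexpressing ones. It was higher with Erbb2 in 3 of 3 pairs, by 1.24-, 1.12- and 1.45-fold, and the groups overlapped because control replicate 3 was above overexpressing replicates 1 and 2. The log2 fold change with the block was 0.35 (95% interval 0.11 to 0.59) and missed the threshold (adjusted p = 0.125, edgeR). Tead1 was at 151, 149 and 102 CPM in controls and 134, 145 and 119 CPM in overexpressing libraries, lower with Erbb2 in 2 pairs and higher in the third. Its fold had an interval from 0.877 to 1.15 (adjusted p = 0.986).

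All 4 TEAD genes were expressed. Per kilobase of exon, Tead1 made up 32.3 ± 9.54% of their summed level in controls and 28.6 ± 6.18% in overexpressing organoids, Tead2 30.2 ± 8.19% and 32.9 ± 2.07%, Tead4 22.96 ± 2.01% and 26.1 ± 4.67%, and Tead3 14.5 ± 0.0545% and 12.4 ± 0.872% (SD, n = 3). The share of Tead1 was lower in both libraries of replicate 3, at 21.7% and 22.0%, than in the other 4, and there Tead2 held 38.8% and 35.2%. Per kilobase, Tead3 was the least abundant in each of the 6 libraries. In CPM, before division by exon length, Tead4 was below Tead3 in every control (24.2, 22.3 and 31.1 against 31.0, 26.5 and 33.5 CPM) and in overexpressing replicate 2 (24.9 against 26.0 CPM). The shares are descriptions; lengths came from a gene annotation that may differ from the one used for counting. Tead4 shared 0.272% of its 50-base runs with other genes, chiefly Tead3, and Tead1 0.181%.

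**Figure D3:**
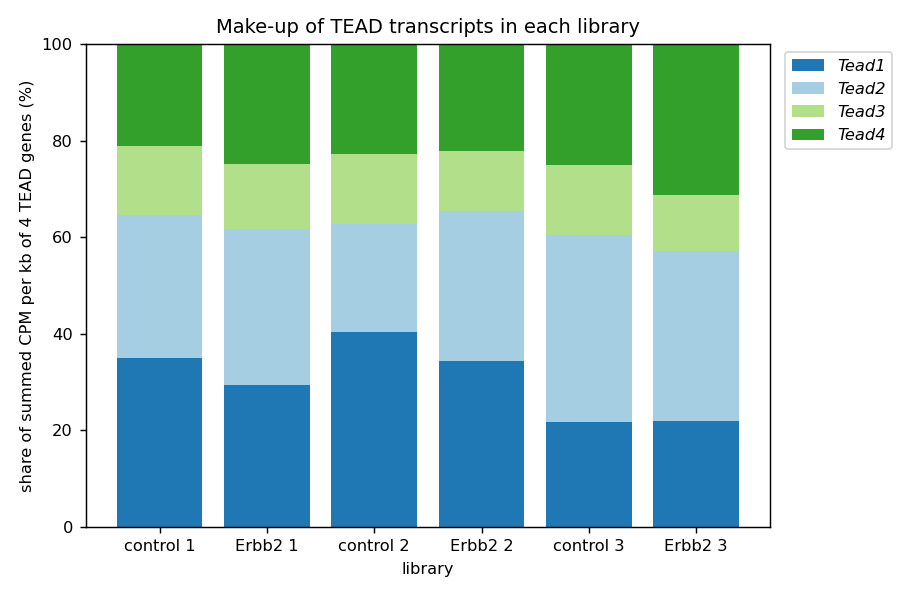
Share of each TEAD gene (stacked bars) in the summed CPM per kilobase of exon of Tead1 to Tead4 (vertical axis, percent) in each library. The Tead1 share is 21.7% and 22.0% in the libraries of replicate 3 and lies between 29.5% and 40.3% in the other 4.

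The inhibitors and adaptors of the pathway did not pass the test either. Amotl2 encodes an angiomotin-like protein that binds YAP and holds it outside the nucleus, and it is also a YAP target. It was at 47.5, 44.7 and 60.2 CPM in control replicates 1, 2 and 3 and at 57.0, 54.6 and 69.9 CPM in the overexpressing ones. The folds within pairs were close to each other, at 1.20, 1.22 and 1.16, yet the groups overlapped through control replicate 3, and the log2 fold change of 0.25 with the block (95% interval 0.07 to 0.44) had an adjusted p of 0.148 (edgeR). Lats2 encodes one of the kinases that phosphorylate YAP. Its controls were at 30.1, 23.7 and 25.1 CPM and its overexpressing libraries at 26.2, 26.6 and 26.4 CPM, within the control range, and the fold had an interval from 0.845 to 1.19 (adjusted p = 0.992). In the gene models 41.2% of its 50-base runs were shared, mostly with Gm49361 on the same strand. Gm49361 and Gm15270 themselves were not among the genes counted, and what the overlaps did to the counts of Lats2 and Ccn2 was not tested. Ajuba encodes a LIM-domain adaptor that restrains the LATS kinases. It was at 97.6, 75.0 and 109 CPM in controls and 97.0, 69.3 and 104 CPM in overexpressing libraries, a little lower with Erbb2 in 3 of 3 pairs, by -0.06 on the log2 scale (95% interval -0.23 to 0.11, adjusted p = 0.757).

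Of the 10 genes, 4 were higher in 3 of 3 pairs (Tead4, Amotl2, Ccn2 and Ankrd1) and 1 was lower (Ajuba). Among all genes tested 38.7% had the same direction in 3 of 3 pairs, 19.6% being higher and 19.2% lower. The 5 of 10 that kept 1 direction are thus not far from the 38.7% of all genes, and 1 of these 5, Ankrd1, passed the test with the block.

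More of the 10 genes differed between replicate numbers than between groups, and this was also so among all genes tested. Between groups, the fit with the block called 1 of the 10 and 3.09% of all genes. The test of the numbers compares more levels than that of the groups. In the fit with group and number, 7 of the 10 genes differed between numbers (edgeR, adjusted p under 0.05), where 29.0% of all genes did: Ccn2, Ajuba, Ccn1, Tead4, Amotl2, Tead1 and Wwtr1. The labels do not say what a number marks. Ccn2 had the smallest adjusted p of the 7, at 2.69e-05, with log2 differences of -0.72 for replicate 2 and 0.62 for replicate 3 against replicate 1. Ccn1 moved the opposite way, by 0.39 and -0.37 (adjusted p = 0.00315). Ajuba was lowest in replicate 2, by -0.43 against replicate 1 (adjusted p = 0.00238), and Tead4 was highest in replicate 3, by 0.48 (adjusted p = 0.00556). Tead1 was lowest in replicate 3, by -0.36 (adjusted p = 0.0253), Amotl2 highest there, by 0.32 (adjusted p = 0.0250), and Wwtr1 likewise, by 0.22 (adjusted p = 0.0483). Ankrd1, Yap1 and Lats2 did not pass, with adjusted p-values of 0.123, 0.235 and 0.604. The immune marker Cd68 was also highest in both libraries of replicate 3, at 52.9 and 72.8 CPM against 17.3 to 34.8 CPM in the others, and its part in these differences was not tested.

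**Figure D4:**
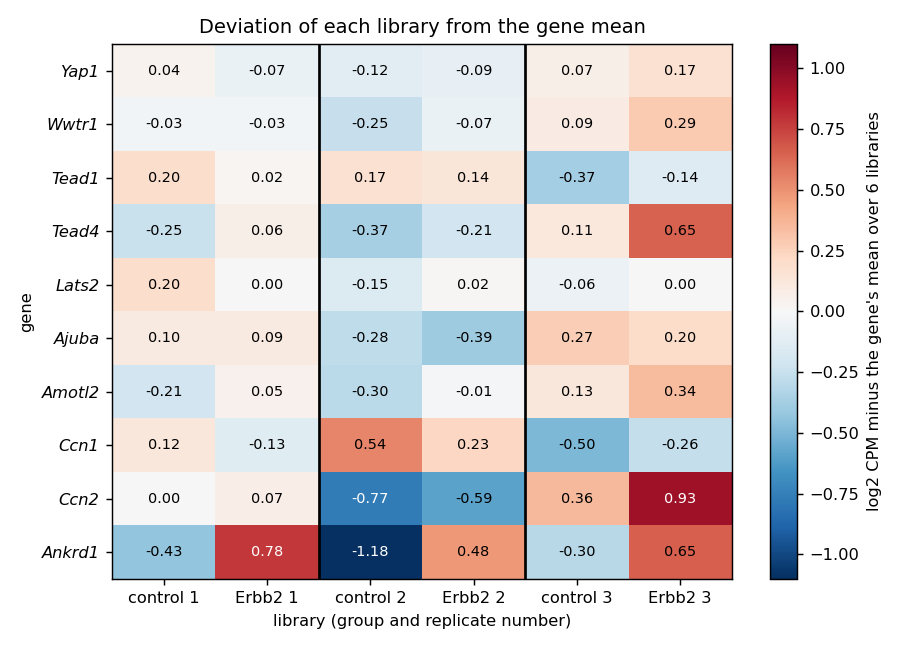
Deviation of each library from the gene's mean over 6 libraries, in log2 CPM (colour and printed value), for the 10 genes (rows), with same-numbered libraries side by side (columns). Ankrd1 is below its mean in the 3 control libraries and above it in the 3 overexpressing ones, while Ccn2 is below its mean in both libraries of replicate 2 and above it in both of replicate 3, and Ccn1 shows the opposite signs there.

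Per kilobase of exon the 10 genes spanned a wide range of levels. In controls Ccn2 stood at 345 ± 126 CPM per kb and Ccn1 at 108 ± 37.0, and the lowest Ccn2 library was above the highest Ccn1 library. Ajuba followed at 25.8 ± 4.81, Wwtr1 at 17.2 ± 2.06, Yap1 at 9.999 ± 0.687 and Tead1 at 9.87 ± 2.05 CPM per kb, the last 2 within their spread of each other. Amotl2 at 8.08 ± 1.31 and Tead4 at 7.19 ± 1.30 CPM per kb also lay within their spread, as did Lats2 at 3.78 ± 0.483 and Ankrd1 at 3.63 ± 1.08. In overexpressing organoids Ankrd1 was at 8.55 ± 0.879 CPM per kb, within the spread of Amotl2 at 9.62 ± 1.31 and Tead4 at 9.27 ± 2.91, and Lats2 was the lowest at 3.78 ± 0.0247.

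Other genes of the pathway were read from lists that were not trimmed by their values. Of 17 further targets of YAP and TAZ, 16 were tested, 2 rose and 0 fell, with a median log2 difference of 0.18, against 2.37% of all genes called higher. F3 encodes tissue factor, the starter of blood clotting. It was at 191, 132 and 310 CPM in control replicates 1, 2 and 3 and at 329, 197 and 400 CPM in the overexpressing ones. Each pair showed a higher level with Erbb2, and the groups overlapped because control replicate 3 was above overexpressing replicate 2. F3 rose 1.49-fold (log2 fold change 0.57, SE 0.09, adjusted p = 0.00503, edgeR with the block) and passed in each of the 9 fits with the block. Dock5, which encodes an activator of the GTPase Rac, was at 40.9, 37.9 and 45.9 CPM in controls and 55.5, 50.6 and 55.6 CPM in overexpressing libraries, without overlap. Dock5 rose 1.30-fold (log2 fold change 0.38, adjusted p = 0.0449), but missed the threshold without replicate 1 or 2 (adjusted p = 0.219 and 0.263) and with no filter on low counts (0.0552). Igfbp3, which encodes a binding protein of insulin-like growth factors, differed by 0.57 in log2 (adjusted p = 0.0533), and the stress-response gene Gadd45a by 0.36 (adjusted p = 0.158). Igfbp3 passed in 4 of the 9 fits with the block: with relative log expression scaling (0.0476), DESeq2 (0.0176), edgeR's earlier form (0.0446) and without replicate 3 (3.56e-05).

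Of 17 other kinase and upstream genes, 15 were tested, 1 rose and 0 fell, against 2.37% and 0.723% of all genes, with a median log2 fold change of 0.01. This was Fat1, which encodes an atypical cadherin that can restrain YAP. Fat1 was at 364, 349 and 189 CPM in control replicates 1, 2 and 3 and at 462, 676 and 249 CPM in the overexpressing ones, and the groups overlapped through overexpressing replicate 3. It rose 1.48-fold (adjusted p = 0.0321, edgeR with the block), with 1.94-fold in pair 2 against 1.27 and 1.32 in the other pairs, and without replicate 2 the adjusted p was 0.163. Frmd6, Sav1 and Taok1 had log2 fold changes of 0.24, -0.13 and 0.13, with adjusted p-values of 0.389, 0.497 and 0.504. Fat4 and Dchs1, which encode a receptor and ligand pair of large cadherins, were below the filter with at most 2 counts in any library.

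Of 9 further cofactors and adaptors, 8 were tested and 0 changed, against 3.09% of all genes, with a median log2 fold change of -0.017. Vgll3, which encodes a cofactor that competes for TEAD factors, had the largest difference: 2.36, 6.65 and 3.23 CPM in control replicates 1, 2 and 3 and 1.22, 1.93 and 2.66 CPM in the overexpressing ones. It was lower with Erbb2 in 3 of 3 pairs, by -0.98 on the log2 scale (SE 0.32, adjusted p = 0.136, edgeR with the block). On the same scale Tead2 stood at 0.30 (adjusted p = 0.204), Amotl1 at 0.14 (0.728) and Amot at 0.08 (0.745). Without replicate 3 the fit with the block called Tead2 higher and Vgll3 lower (adjusted p = 0.00563 and 0.00199, edgeR), where it called 8.71% of all genes. The counts of Vgll3 were low, from 28 to 118 per library.

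SRF, with its coactivators of the MRTF family, is another actin-responsive regulator of Ccn1, Ccn2 and Ankrd1. Of 13 genes for SRF, MRTFs and their targets, 10 were tested and 0 changed, against 3.09% of all genes, with a median log2 fold change of 0.03. Srf itself was at 51.7, 64.0 and 53.5 CPM in control replicates 1, 2 and 3 and at 43.1, 46.8 and 45.6 CPM in the overexpressing ones, without overlap, and its log2 fold change was -0.31 (SE 0.09, adjusted p = 0.0961, edgeR with the block). Cnn2, an actin-binding calponin gene, stood at 0.36 (adjusted p = 0.0687), the filamin gene Flna, whose groups did not overlap, at 0.52 (0.118) and the tropomyosin gene Tpm1 at 0.16 (0.313). Without replicate 3, the fit with the block called Srf lower (adjusted p = 0.0218) and Cnn2 and Flna higher (0.00122 and 1.59e-09), where it called 8.71% of all genes. DESeq2 with the block called Flna (0.00235). The smooth muscle targets Acta2, Tagln and Cnn1 were below the filter.

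**Figure D5:**
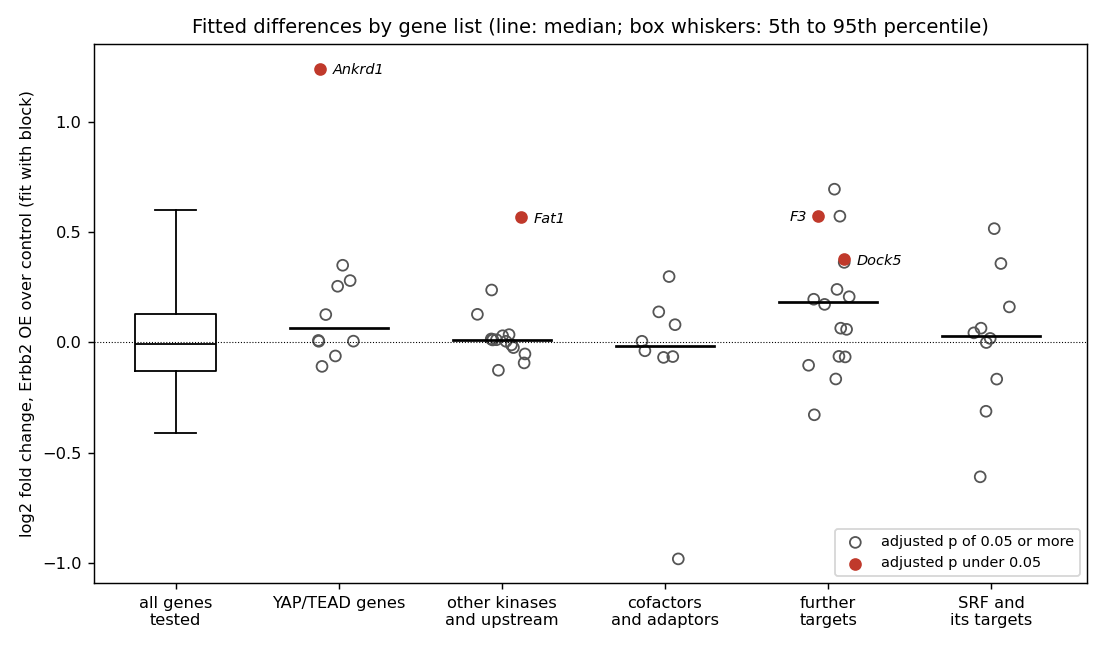
Log2 fold change, Erbb2 OE over control, in the fit with the block (vertical axis) for all genes tested (box with median and quartiles, whiskers at the 5th and 95th percentiles) and for the genes of each list (points; red for an adjusted p under 0.05, line at the median). Ankrd1, Fat1, F3 and Dock5 are the 4 red points, at 1.24, 0.57, 0.57 and 0.38.

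Outside the lists used here, the genes whose levels followed the mean of Ankrd1, Ccn1 and Ccn2 most closely were Btc, Ankrd50, Pcdh1, Jag1 and Mcts2. Likeness was measured as the root mean square difference between centred log2 CPM over the 6 libraries. The ranking left out the genes of all pathway and marker lists, genes without a symbol and those with predicted-gene names. It covered 10238 genes whose average was no lower than 2 in log2 CPM. The difference was 0.0447 for Btc, which encodes the ErbB ligand betacellulin, 0.0768 for Ankrd50 and 0.0820 for Pcdh1, a protocadherin gene. For Jag1, which encodes a Notch ligand, it was 0.0908, and for Mcts2 0.0913, where the median of the 10238 genes was 0.351. The mean profile was -0.10, -0.47 and -0.15 in control replicates 1, 2 and 3 and 0.24, 0.04 and 0.44 in the overexpressing ones. Among the 10 genes themselves Yap1 and Wwtr1 were the closest pair, at 0.0811. The 3 targets that make up the mean differed from one another by much more. Their difference was 0.644 between Ccn2 and Ankrd1, 0.875 between Ccn1 and Ccn2 and 0.913 between Ccn1 and Ankrd1. A gene close to their mean is thus not shown to follow any 1 of them.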

How the data were processed

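Counts came from 6 libraries, 3 per group, grouped and numbered by sample title. The authors deposited 1 table per library with unnormalized read counts for each Ensembl gene. Per the submitters' processing notes, STAR, featureCounts and GRCm39 were used; no version, annotation or strand setting is given in the sources used here. Symbols matched 25424 of 25528 gene IDs, and the 104 others stayed in the tests. Genes were kept by filterByExpr (minimum count 10) and scaled by TMM in edgeR 4.0.16 under R 4.3.3. P-values of its robust quasi-likelihood test, which is two-sided, were adjusted by Benjamini-Hochberg over all 12593 genes at 0.05. Standard errors were derived from the log2 fold change and its F statistic.

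The planned fit had the group alone, and the replicate block was an alternative. Deviations from group means of same-numbered libraries correlated at 0.333, 0.660 and 0.707, so the block is printed too; the labels give only the numbers, and this check used the same counts. The labels name no separate cultures or animals within a group, so p-values measure the spread between these libraries, which may be technical. DESeq2 1.42.0 and limma 3.58.1 were alternatives, with other scalings, filters and left-out libraries. Exon lengths, overlaps and shared 50-base runs came from GENCODE M21, on an earlier build. The fits were tested on simulated data. The 10 genes and all lists were chosen with earlier results of these data known. Named genes are all 10, up to 4 of each other list with the smallest p in the fit with the block, and any gene called; likeness was fixed to 5 genes. Counts of 0 and low counts cover counting error only.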

Additional observations from a re-analysis of the deposited data

How the results depend on the processing

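Without the block, the alternatives in edgeR and limma voom called 0 of the 10 genes and 0 of the further pathway genes, while DESeq2 called 1 and 0, with 34 genes overall. With the block, 1 of the 10 was called under the main settings, relative log expression scaling, DESeq2, voom, no filter and the earlier form of the fit; the further pathway genes called were 3, 4, 5, 3, 2 and 4, and all genes called 389, 395, 466, 417, 345 and 405. The DESeq2 call of Ankrd1 without the block had an adjusted p of 0.00451. When libraries or pairs were left out, the 10 genes gave 0 to 2 calls, the further genes 0 to 9 and all genes 0 to 1089, with 213, 146 and 1089 in the fits with the block without replicates 1, 2 and 3. The single call without a block among these was made without control replicate 3.

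Ankrd1 kept its sign in 21 of 21 alternatives (1.01 to 1.41), as did Wwtr1, Tead4 and Amotl2, and the block changed no other call among the 10 except that of Ccn1 without replicate 3. Against the group-only fit, signs near 0 changed for Tead1, which was 0.0069 with voom and, with the block, 0.0054 under the main settings, 0.011 with relative log expression scaling, 0.011 with DESeq2, 0.0044 with voom, 0.0060 with no filter and 0.0058 with the earlier form; Lats2 was -0.0030 with the block and voom. Leaving out 1 library gave log2 fold changes of -0.077 to 0.055 for Yap1, -0.17 to 0.084 for Tead1, -0.067 to 0.11 for Lats2, -0.20 to 0.10 for Ajuba, -0.38 to 0.12 for Ccn1, -0.15 to 0.63 for Ccn2, -0.12 to 0.58 for Frmd6, -0.14 to 0.30 for Taok1, -0.085 to 0.26 for Amot, -0.14 to 0.27 for Amotl1, -0.089 to 0.87 for Cnn2 and -0.0046 to 0.34 for Tpm1. Against the full fit with the block, signs changed without replicate 2 for Amotl1 (-0.047), Ccn1 (0.0027) and Lats2 (-0.054), and without replicate 3 for Lats2 (-0.022), Yap1 (-0.033) and Tead1 (-0.099). Tead1 was 0.098 and 0.037 without replicates 1 and 2, the sign of the full fit with the block and opposite to the group-only fit; the cause was not tested. Genes differing between replicate numbers were 7 of 10, 7 with relative log expression scaling and 6 with no filter.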
